A study of Homo sapiens with 6 samples.

Results

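The cytosolic ribosomal protein genes are the genes for the proteins of the large and the small ribosomal subunit, described here in LX-2 cells with a mutated and an intact MPI gene. Members were taken by gene symbol: RPL or RPS followed by digits, with an optional A, X, L or Y ending, plus RPLP0, RPLP1, RPLP2 and RPSA. Pseudogenes and the RPS6 kinase genes were left out. The rule found 79 genes, 47 of the large and 32 of the small subunit, among 17911 genes listed. LX-2 is an immortalised human hepatic stellate cell line, a culture model of the liver cells that make scar matrix. RNA was sequenced from 3 libraries labelled MPI MT, which carry a mutation in exon 3 of MPI, and from 3 libraries of wild-type (WT) LX-2 cells. MPI encodes mannose phosphate isomerase, which feeds mannose into the glycosylation of proteins. The labels give neither a treatment nor a number of clones. Both genotypes were grown in the same serum-containing medium. The labels do not say whether replicate libraries are separate cultures, and the p-values cover only library-to-library spread, which could be technical.

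Each ribosome holds a single copy of nearly every ribosomal protein beside the ribosomal RNAs, and the P stalk is the exception, with several copies of RPLP1 and RPLP2. Most messenger RNAs of these proteins begin with a C and a run of pyrimidines, the terminal oligopyrimidine (TOP) tract, through which mTORC1 and the protein LARP1 set their translation and stability. In stellate cells, ribosome supply bears on growth and on the output of secreted matrix proteins.

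The TOP tract can be seen at an annotated start of most of the genes shown here, which were called between the genotypes. For a gene with several annotated starts, a start with the tract was printed where there was any. The stretches below are taken from RefSeq (GRCh38.p14) and run from 30 bases before the annotated start to 20 bases from it, 5′ to 3′. Capitals mark the unbroken run of C and T from the start.
RPS28: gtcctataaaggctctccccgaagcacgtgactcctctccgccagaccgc
RPS12: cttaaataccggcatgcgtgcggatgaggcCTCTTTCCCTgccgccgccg
RPS21: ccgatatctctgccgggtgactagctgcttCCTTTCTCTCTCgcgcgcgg
RPS16: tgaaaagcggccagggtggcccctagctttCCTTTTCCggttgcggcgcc
RPS27A: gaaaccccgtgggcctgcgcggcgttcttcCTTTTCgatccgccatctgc
RPS3: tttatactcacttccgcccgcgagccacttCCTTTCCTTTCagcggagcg
RPL36: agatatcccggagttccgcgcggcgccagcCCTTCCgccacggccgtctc
RPL38: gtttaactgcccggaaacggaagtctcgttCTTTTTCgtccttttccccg
RPL17: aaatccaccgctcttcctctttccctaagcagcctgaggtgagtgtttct
RPL7A: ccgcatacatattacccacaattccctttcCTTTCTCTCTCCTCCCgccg
They lie at chr19:8321466-8321515 for RPS28, chr6:132814539-132814588 for RPS12, chr20:62387073-62387122 for RPS21, chr19:39435930-39435979 for RPS16, chr2:55232658-55232707 for RPS27A, chr11:75399488-75399537 for RPS3, chr19:5690265-5690314 for RPL36, chr17:74203648-74203697 for RPL38, chr18:49492446-49492495 for RPL17 and chr9:133348188-133348237 for RPL7A. RPS16 and RPL17 are on the minus strand and the others are on the plus strand. RPS28 and RPL17 have no capitals because the annotated starts shown for them are a purine, and RPL7A has the longest run of those shown, with 16 pyrimidines. RefSeq starts were matched by symbol for 63 of the 79 members, with 78 starts in all. The unmatched genes included RPL5, RPL7, RPL8, RPL23, RPL23A, RPL30, RPL37, RPL39L, RPS2, RPS15A and RPS20. A start with C followed by at least 4 further pyrimidines was found in 46 of the 63 members (73.0%), against 753 of 10702 other listed protein-coding genes (7.04%). Here and in the counts below, a gene was counted if any of its starts qualified. In the window of 250 bases before and 50 bases after the start, the letters CTTCCG occurred on either strand in 41 of 63 members (65.1%) and in 37.0% of the other genes. The E-box letters CACGTG occurred in 4 members (6.35%), RPS28 among them, and in 12.5% of the other genes. Of the members called below, 8 of the 10 with a start had a TOP start, against 38 of the 53 members with a start that were not called.

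Values below are read counts divided by a size factor per library, called normalised reads. Fold changes (MPI MT over WT, ± SE) were computed on log2(value + 1), and a gene is called when limma's adjusted p is under 0.05. The libraries held 27037905 to 34970840 reads over the listed genes, and members had from 449 to 56346 normalised reads in a library. MPI itself had 1051, 978 and 1035 normalised reads in MPI MT libraries 1 to 3, against 1292, 1283 and 1256 in WT libraries 1 to 3, a log2 fold change of -0.32 ± 0.07 (SE, n = 3 per genotype, limma adjusted p = 0.00646). Of 10 stellate and fibroblast markers 9 were listed, with VIM, COL1A1 and SPARC highest in reads. VIM was called higher (log2 fold change 0.27), and 4 were called lower: COL1A2 (-1.37), TAGLN (-1.28), ACTA2 (-0.97) and PDGFRB (-0.47). The others were not called, and the median over the 9 was -0.32. Only SERPINA1 of 6 hepatocyte markers was listed, at 62.4 to 105 normalised reads in MPI MT and 155 to 173 in WT. The 4 macrophage markers summed to 324 to 356 in MPI MT and 523 to 604 in WT, the 3 listed endothelial markers to 169 to 201 and 88.5 to 125, and the 2 listed epithelial markers to 156 to 263 and 201 to 269. Within the macrophage list CD14 was lower (mean 129 in MPI MT and 427 in WT), while CD68 and CSF1R were called higher (log2 fold changes 0.74 and 0.92). Of the endothelial markers PECAM1 was called higher (2.03), while VWF and KDR had -0.30 and -0.52 and were not called. The part of these low levels in the results was not tested.

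Most ribosomal protein genes did not pass the test, and the few that did were mainly higher in MPI MT. In the large subunit 4 members, among them RPL36, RPL17 and RPL38, were higher and RPL7A was lower, and 42 members were not called. In the small subunit RPS28, RPS12, RPS21, RPS16 and RPS27A were higher and RPS3 was lower, and 26 were not called. Over all 17893 genes tested, 16.0% were called higher and 16.6% lower. In the large subunit 8.51% were higher and 2.13% lower, both under that background. In the small subunit 15.6% were higher, near the background, and 3.13% lower, under it. The libraries of the genotypes did not overlap for 12 members that were higher and 4 that were lower, against 23.1% and 23.6% of all genes tested. The median log2 fold change was 0.09 in the large subunit and 0.12 in the small subunit, where values ranged from -0.51 to 0.76. Over all genes tested it was -0.003.

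**Figure D1:**
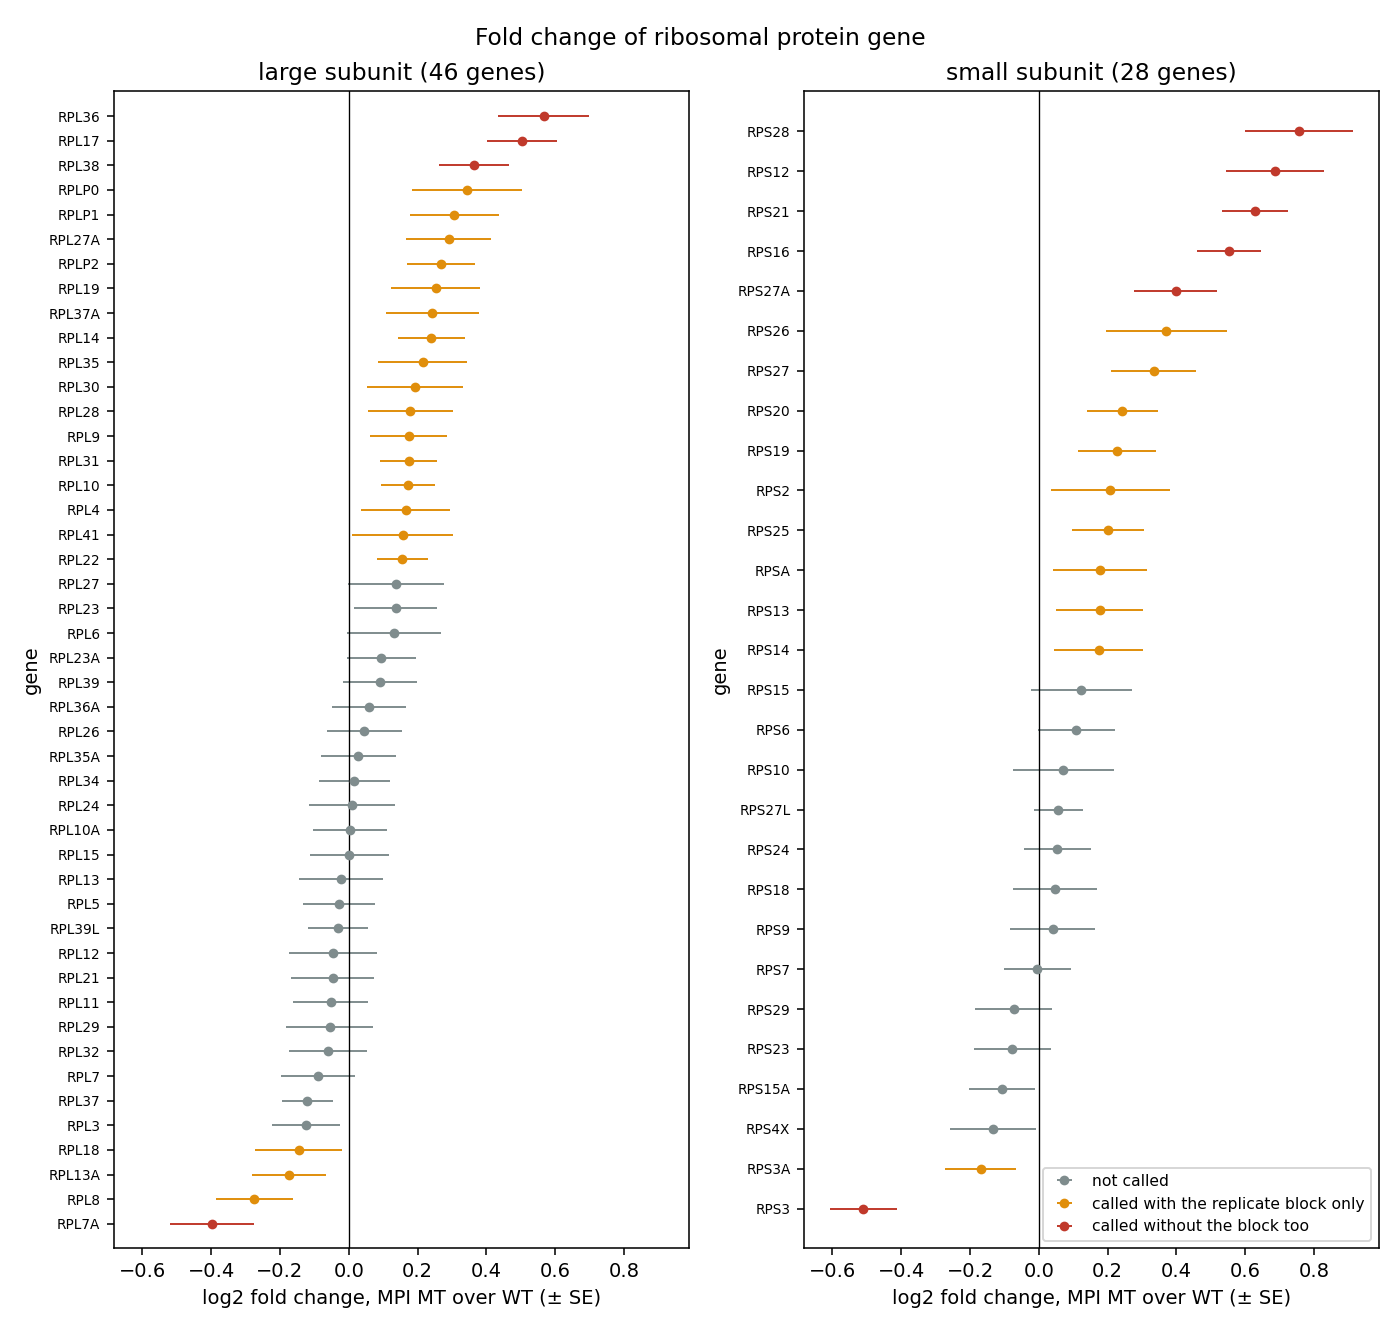
Log2 fold change (MPI MT over WT, x axis) of 46 members of the large subunit (left panel) and 28 of the small subunit (right panel), with bars of 1 SE (n = 3 libraries per genotype). Red points passed limma's test without and with the replicate block, orange points passed with the block only, and grey points passed in neither, and most points lie right of 0.

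The libraries numbered 1 deviated together from their genotype means (correlation 0.545 over all genes). Numbers 2 and 3 were not singled out as pairs, since MPI MT 2 went more with WT 3 (0.299) than with WT 2 (0.189). No label names a shared batch, so the block rests on these data alone. Fitting the number as a block gave many more calls. With the block, limma called 20 large subunit members higher and 4 lower, and 15 small subunit members higher and 3 lower. The background moved too, to 25.1% of all genes higher and 24.6% lower. The 35 members called higher were 44.3% of the 79, above that background, and the 7 called lower were 8.86%, below it. Among other protein-coding genes with a mean of at least 3000 normalised reads, 34.6% were higher and 27.8% lower with the block. Each of the 11 calls of the unblocked fit was also made with the block. The blocked calls included RPLP0, RPLP1, RPLP2 and RPS27 among the higher genes, and RPL8, RPL13A, RPL18 and RPS3A among the lower ones. With edgeR and the block the lower calls were 3 in the large and 1 in the small subunit, and RPL18 and RPS3A were not among them.

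The libraries numbered 1 had the lowest ribosomal protein transcripts in both genotypes. All 47 large and all 32 small subunit members had their lowest MPI MT value in MPI MT 1, and all 79 had their lowest WT value in WT 1. Among the other genes tested, the library numbered 1 was lowest for 43.6% in MPI MT and for 41.6% in WT. The median gap of library 1 below the mean of libraries 2 and 3 was -0.37 (log2) for both subunits in MPI MT and -0.20 for both in WT. Median log2 values relative to the WT mean were -0.16, 0.20 and 0.22 for the large subunit in MPI MT libraries 1 to 3, against -0.13, 0.05 and 0.09 in WT libraries 1 to 3. For the small subunit they were -0.14, 0.26 and 0.29 in MPI MT, against -0.13, 0.06 and 0.07 in WT. MPI MT 1 thus lay level with WT 1, while MPI MT 2 and 3 lay above every WT library. Without MPI MT 1 alone, limma called 24 large and 17 small subunit members higher, and 1 of each lower, over a background of 24.7% higher and 24.2% lower. Without both libraries numbered 1 the counts were 26 and 18 higher, and 3 and 2 lower, over a background of 28.3% higher and 27.1% lower. The medians moved with single libraries, to 0.20 (large) and 0.26 (small) without MPI MT 1, 0.04 and 0.03 without MPI MT 3, and 0.05 and 0.04 without WT 1.

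**Figure D2:**
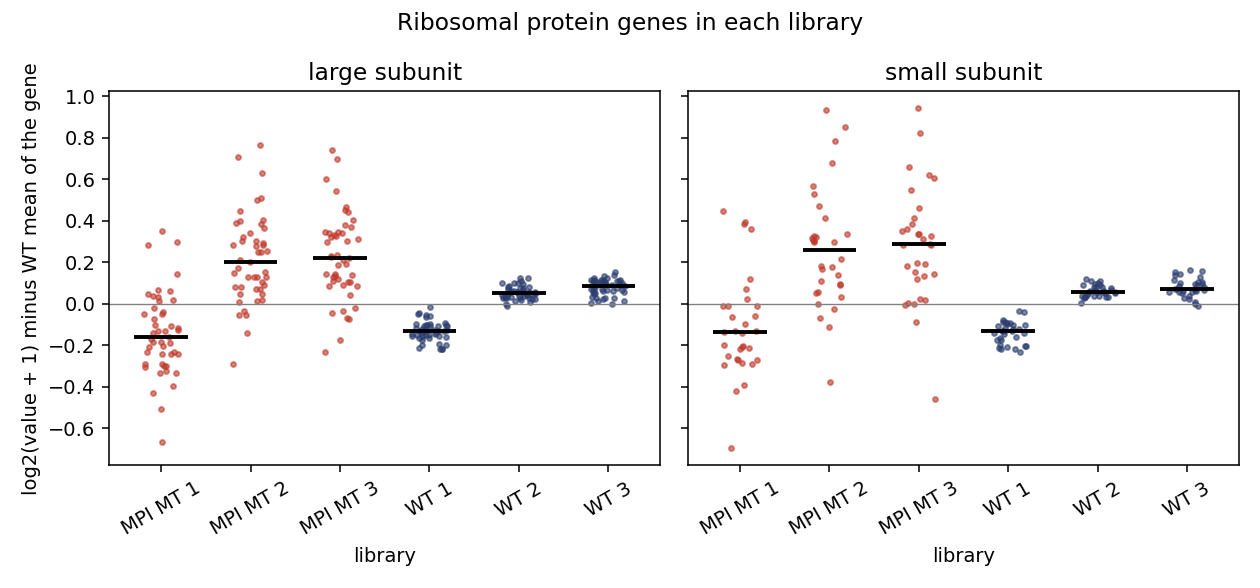
Each point is 1 ribosomal protein gene in 1 library, as log2(value + 1) minus the gene's WT mean (y axis), with libraries on the x axis, MPI MT red and WT blue, and black bars at the medians. The library numbered 1 lies lowest in each genotype. The genes spread more widely in the MPI MT libraries than in the WT libraries, whose own values enter the mean subtracted.

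Ribosomal protein genes took 3.10%, 3.80% and 3.86% of reads in the MPI MT libraries and 3.17%, 3.53% and 3.52% in the WT libraries, counted over listed genes not encoded in mitochondria. Large subunit genes made up 2.21% ± 0.26 of reads in MPI MT and 2.12% ± 0.12 in WT (SD, n = 3 each). Small subunit genes made up 1.38% ± 0.16 in MPI MT and 1.29% ± 0.08 in WT (SD, n = 3 each). Both gaps were smaller than the SD between MPI MT libraries. The ratio of large to small subunit reads was 1.61, 1.60 and 1.61 in MPI MT and 1.65, 1.64 and 1.64 in WT, and these values did not overlap. With 3 libraries against 3 an exact two-sided permutation test cannot go below 0.10, and none was run on these shares. Relative to the WT mean, the SD over the 79 genes was 0.22 to 0.24 (log2) within each MPI MT library. It was 0.03 to 0.05 within each WT library, where the WT values enter the mean they are set against. The SD of the log2 fold change was 0.23 over the members. It was 0.73 over all genes tested and 0.39 over other protein-coding genes with a mean of at least 3000 normalised reads.

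Of the proteins that line the path of the messenger RNA through the small subunit, RPS28 and RPS3 moved in opposite directions. RPS28 sits at the exit of the mRNA channel and is one of the genes mutated in Diamond-Blackfan anaemia, an inherited failure of red cell production. It had 6384, 9263 and 9316 normalised reads in MPI MT libraries 1 to 3, against 4175, 5040 and 5438 in WT libraries 1 to 3. Every MPI MT library was above every WT library, and the log2 fold change was 0.76 ± 0.16 (limma adjusted p = 0.00716). RPS28 (ENSG00000233927) spans chr19:8321158-8323340 on GRCh38, with 4 exons in the reference transcript, and 27.5% of that transcript lies over exons of other genes. RPS3 lies at the mRNA entry and also has a role in DNA repair. It had 16319, 20333 and 19250 normalised reads in MPI MT libraries 1 to 3, against 25010, 28105 and 26255 in WT libraries 1 to 3. All MPI MT values were below all WT values, with a change of -0.51 ± 0.10 in log2 (limma adjusted p = 0.00461). RPS3 (ENSG00000149273) spans chr11:75399486-75422280 and holds 2 snoRNA genes in its introns. The ratio of RPS28 to RPS3, picked after the values were seen, was 0.391, 0.456 and 0.484 in MPI MT, against 0.167, 0.179 and 0.207 in WT. Of the other channel proteins, RPS2, RPS26 and RPSA had log2 fold changes of 0.21, 0.37 and 0.18 and were not called without the block. All 3 passed with the block (limma adjusted p = 0.0154, 5.2e-04 and 0.0131).

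The other called small subunit genes were higher in MPI MT in all libraries. RPS12, a protein of the beak of the small subunit, had 12977, 17899 and 17584 normalised reads in MPI MT libraries 1 to 3, against 8462, 10781 and 10739 in WT. No values overlapped, and the log2 fold change was 0.69 ± 0.14 (limma adjusted p = 0.00735). RPS21, at the solvent side of the subunit, had 11204, 14171 and 12974 normalised reads in MPI MT, against 7738, 8696 and 8288 in WT, a change of 0.63 ± 0.10 in log2 (limma adjusted p = 0.00161). RPS16, whose tail reaches the tRNA in the decoding site, had 18972, 23665 and 22724 normalised reads in MPI MT, against 14370, 14792 and 15179 in WT, a change of 0.55 ± 0.09 in log2 (limma adjusted p = 0.00252). For both genes the lowest MPI MT library, number 1, stayed above the highest WT library. RPS27A is made as a fusion with ubiquitin and is one of the cell's ubiquitin sources. It had 11423, 15193 and 15393 normalised reads in MPI MT, against 9694, 11220 and 10741 in WT, a change of 0.40 ± 0.12 in log2 (limma adjusted p = 0.0357). Its groups were separated only narrowly, between MPI MT 1 and WT 2, and its call was lost without any one of MPI MT 2, MPI MT 3 or the WT libraries, with limma adjusted p up to 0.128. RPS12 (ENSG00000112306) lies at chr6:132814441-132817564, RPS21 (ENSG00000171858) at chr20:62387116-62388520, RPS16 (ENSG00000105193) at chr19:39433207-39435948 and RPS27A (ENSG00000143947) at chr2:55231903-55235853.

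**Figure D3:**
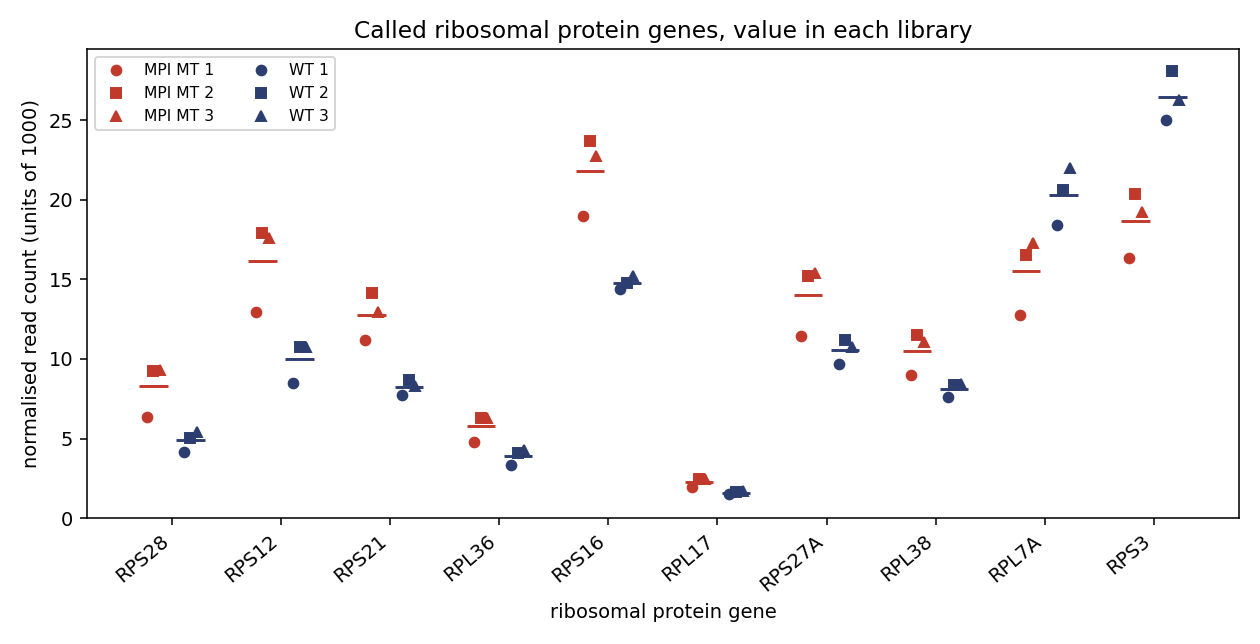
Normalised reads (y axis, in units of 1000) of 10 called ribosomal protein genes (x axis) in each MPI MT library (red) and WT library (blue), with a horizontal line at each mean (n = 3) and a symbol for each library number. The 8 genes at left are higher and RPL7A and RPS3 are lower in MPI MT, with no overlap between genotypes.

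In the large subunit, RPL17 was the only called protein of the polypeptide exit tunnel. RPL17 lines the tunnel's narrow part and had 1957, 2484 and 2432 normalised reads in MPI MT libraries 1 to 3, against 1498, 1617 and 1709 in WT. The values did not overlap, with a change of 0.50 ± 0.10 in log2 (limma adjusted p = 0.00636). It lies at chr18:49488453-49492523 (ENSG00000265681), and 91.0% of its reference transcript is shared with other annotated genes, one of them the readthrough gene RPL17-C18orf32, so its count is uncertain. All 8 exit tunnel proteins in the list had positive log2 fold changes, from 0.05 for RPL26 to RPL17's. Without the block 12.5% of them were called higher, against 16.0% of all genes tested. With the block 5 of them (62.5%) were called higher, against 44.3% of all members and 25.1% of all genes. RPL4, the most abundant of these by reads, had 24622, 32721 and 34202 normalised reads in MPI MT, against 24544, 27685 and 28730 in WT, and these overlapped. The count of RPL26 is uncertain too, since 59.0% of its reference transcript lies over exons of other genes.

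The P stalk, which recruits elongation factors, was not called without the block. RPLP0, its base protein, had the highest read count of all members, with 38159, 55052 and 56346 normalised reads in MPI MT libraries 1 to 3, against 33326, 41474 and 41965 in WT. Only MPI MT 1 lay within the WT range, and the log2 fold change was 0.34 ± 0.16 (limma adjusted p = 0.136, and 2.1e-04 with the block). RPLP1 and RPLP2, the paired acidic proteins of the stalk, had log2 fold changes of 0.31 and 0.27 and were called with the block only, while RPL12, which anchors the stalk to ribosomal RNA, had -0.05 and was called in neither fit. RPL5 and RPL11, which carry the 5S ribosomal RNA and bind MDM2 when ribosome assembly fails, had log2 fold changes of -0.03 and -0.05, with overlapping libraries and no call in either fit.

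Other called large subunit genes were RPL36, RPL38 and RPL7A. RPL36 had 4763, 6321 and 6284 normalised reads in MPI MT, against 3338, 4083 and 4272 in WT, a change of 0.57 ± 0.13 in log2 (limma adjusted p = 0.0119). This gene, which encodes a protein of the outer face of the subunit, was higher in every MPI MT library than in any WT library. RPL38, whose loss in mice alters the translation of Hox messenger RNAs, had 8964, 11500 and 11087 normalised reads in MPI MT, against 7598, 8346 and 8448 in WT. Its log2 fold change was 0.36 ± 0.10 (limma adjusted p = 0.0258), a call lost without any one of MPI MT 2, MPI MT 3 or the WT libraries (limma adjusted p up to 0.102). RPL7A, an RNA-binding protein whose introns hold 4 snoRNA genes, had 12772, 16555 and 17250 normalised reads in MPI MT, against 18422, 20582 and 21977 in WT. Every MPI MT value was below every WT value, and the log2 fold change was -0.40 ± 0.12 (limma adjusted p = 0.0375), lost without MPI MT 2, WT 2 or WT 3 (limma adjusted p up to 0.13). RPL36 (ENSG00000130255) lies at chr19:5674947-5691876, RPL38 (ENSG00000172809) at chr17:74203582-74210655 and RPL7A (ENSG00000148303) at chr9:133348214-133351426. Reads of RPL38 are uncertain too, since 57.8% of its reference transcript lies over MGC16275 on the other strand, and no source used here gives the strand setting of the count.

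Beyond the threshold lay RPLP2 (limma adjusted p = 0.0685), RPS27 (0.0724), RPL8 (0.0924) and RPL14 (0.0944), with log2 fold changes of 0.27, 0.33, -0.27 and 0.24, and just inside it RPL7A and RPS27A. Other members with high read counts were not called and overlapped between genotypes. RPL3, next to the peptidyl transferase centre, had 20083, 24117 and 24142 normalised reads in MPI MT, against 22614, 25959 and 25824 in WT (log2 fold change -0.12). RPL13A, which also acts in silencing of inflammatory transcripts, had a log2 fold change of -0.17, RPS18 0.05 and RPS23 -0.08.

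Of the 19 genes mutated in Diamond-Blackfan anaemia among the members, only RPS28 was called, with a median log2 fold change of 0.05 over the list, and with the block 7 were higher and 1 lower. The share called higher was 5.26%, against 16.0% of all genes, and 36.8% with the block, against 25.1%. Of 12 members with known roles outside the ribosome, RPL38 was called higher and RPS3 lower, with a median of 0.05, and with the block 3 were higher and 2 lower. With the block the share higher was that of all genes (25.1%) to within 1 member, and 16.7% were lower, against 24.6%.

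The members with paralogs named next were not called without the block. RPL39L, a copy used mainly in the testis, had 449, 520 and 478 normalised reads in MPI MT, against 488, 489 and 501 in WT. Its paralog RPL39 had 5773, 7202 and 7149 in MPI MT, against 5636, 6826 and 6398 in WT. RPS27L, a p53-induced relative of RPS27, had 3028, 3370 and 3490 normalised reads in MPI MT, against 3085, 3251 and 3158 in WT. Its log2 fold change of 0.06 stood beside 0.33 for RPS27, and only RPS27 passed with the block. RPL36A and RPL10 on the X chromosome had log2 fold changes of 0.06 and 0.17, and RPS4X had -0.13. Counts of RPL36A and RPL10 are uncertain, since 77.6% and 56.6% of their reference transcripts lie over exons of other genes. RPL3L and RPL10L, copies of RPL3 and RPL10, were not analysed here.

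The direction of a member's change went with that of the genes around it. For each member the median log2 fold change was taken over the other protein-coding genes within 2 Mb on either side, leaving out members. Across the 79 members this median and the member's own log2 fold change had a Spearman rho of 0.61, and 61 members (77.2%) had the same sign as their neighbours, against 62.5% of other protein-coding genes and 65.9% of those with a mean of at least 3000 normalised reads. The points share libraries, and some windows overlap, so this is a description. Among other protein-coding genes the same measure gave 0.35 (n = 13376), and among those with a mean of at least 3000 normalised reads it gave 0.45 (n = 2542). Over the 68 members that were not called it was 0.42, and over all members without both libraries numbered 1 it was 0.62.

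The 75 neighbours of RPS28 had a median of 0.33 and 41 were called higher, the 72 of RPL36 had 0.32 with 36 called higher, and the 81 of RPS16 had 0.26 with 28 called higher. These 3 genes lie on chromosome 19, where 315 of 999 other protein-coding genes were called higher and 120 lower, with a median of 0.14. Both genes that were lower lay among lower genes. RPS3's 35 neighbours had a median of -0.49 with 25 called lower and 1 higher, and RPL7A's 36 neighbours had -0.28 with 16 called lower and none higher. On chromosome 11, where RPS3 lies, 281 of 770 other protein-coding genes were called lower and 54 higher, while the other 4 members there had positive log2 fold changes. RPS21 differed most from its surroundings among the called members, with 0.63 against a median of 0.10 over 44 neighbours. The part of chromosomal position in the results was not tested.

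**Figure D4:**
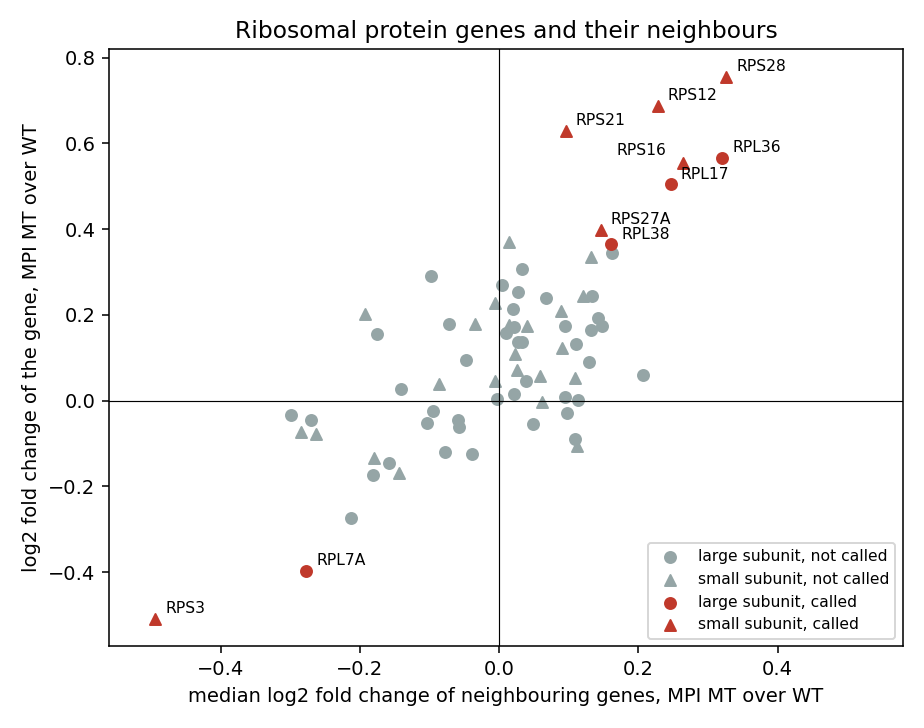
Log2 fold change (MPI MT over WT) of each ribosomal protein gene (y axis) against the median log2 fold change of the other protein-coding genes within 2 Mb on either side (x axis), with called genes in red. RPS3 and RPL7A lie at lower left and RPS28 and RPL36 at upper right, and 74 of the 79 genes are drawn.

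Short members had the higher median fold change. The 38 members with a coding length under 450 nt had a median log2 fold change of 0.18, with 6 called higher and none lower, and the 41 longer members had a median of 0.01, with 3 called higher and 2 lower. The shares called higher were 15.8% of the short and 7.32% of the longer members, so the share of the short ones was near the 16.0% of all genes, and the difference was not tested. Spearman's rho between coding length and log2 fold change was -0.35 over the 79 members and -0.14 over 13629 other protein-coding genes, as a description across genes that share the same libraries. It was -0.42, -0.31 and -0.29 in the pairs of libraries numbered 1, 2 and 3. The 28 members with a snoRNA gene inside them had a median log2 fold change of 0.09 and the 51 without one had 0.12. Both lower calls, RPS3 and RPL7A, were snoRNA hosts, as were RPL17 and RPS12 among the higher ones.

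Genes that make or run ribosomes were described by the same test. Outside the naming rule, FAU, which encodes the small subunit protein fused to a ubiquitin-like protein, and RACK1, a scaffold on the small subunit, had log2 fold changes of 0.06 and 0.09 and were not called.

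Among 65 ribosome biogenesis factors, which process ribosomal RNA and assemble subunits, 27 were called higher and 2 lower, with a median log2 fold change of 0.26. These were 41.5% and 3.08%, against 16.0% and 16.6% of all genes tested. LTV1 and RPF2, which assemble the small and the large subunit, had log2 fold changes of 0.77 and 0.74, and RRP12, which in yeast takes part in subunit export, had 0.73. HEATR1, a factor of early ribosomal RNA transcription and processing, was lower at 1175, 1274 and 1304 normalised reads in MPI MT, against 2077, 2360 and 2494 in WT, a log2 fold change of -0.88. Of 16 tested host transcripts of snoRNAs, which guide ribosomal RNA modification, 8 were called higher and none lower, with a median of 0.38. SNHG8, SNHG16, GAS5 and ZFAS1 had log2 fold changes of 0.91, 0.71, 0.63 and 0.62. Of 20 RNA polymerase I genes 3 were called, all higher: CD3EAP (0.79), POLR1C (0.45) and POLR1B (0.28). The share called higher, 15.0%, was near the 16.0% of all genes tested. The POLR1C and POLR1B calls were lost without any one of MPI MT 2, MPI MT 3, WT 1 or WT 2. The POLR1B call was also lost without WT 3 (limma adjusted p up to 0.072 for POLR1C and 0.106 for POLR1B).

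Of 27 initiation factors 6 were called higher and 1 lower, with a median of 0.21, led by EIF3G (0.75) and EIF3K (0.49), subunits of the eIF3 complex, EIF1 (0.48), which helps to select the start codon, and EIF2B3 (0.36), a subunit of the exchange factor of eIF2. The shares were 22.2% higher and 3.70% lower, against 16.0% and 16.6% of all genes tested. Of 20 other genes with known TOP starts, mostly translation factors, 2 were called higher, VIM (0.27), an intermediate filament gene, and EIF3A (0.30), and 2 lower, EIF3L (-0.33) and EEF1G (-0.69), with a median of -0.001. The share was 10.0% in each direction, under that of all genes. EEF1G was listed at 23.4 to 30.6 normalised reads in MPI MT and 38.1 to 46.6 in WT, and its call was lost under DESeq2 and without any one of 5 libraries. Of 78 mitochondrial ribosome genes 19 (24.4%) were called higher and 3 (3.85%) lower, with a median of 0.17, led by MRPL34 (0.69), MRPL12 (0.69), MRPS12 (0.68) and MRPL18 (0.57). Of 27 genes of mTORC1 signalling and MYC, which drive ribosome production, 4 were called higher and 5 lower. At 14.8% and 18.5%, both shares were near those of all genes. RPTOR, the defining subunit of mTORC1, had a log2 fold change of 0.56, and RHEB, its activator, had 0.39. SESN2, an inhibitor of mTORC1, had 0.40 and TSC1, another inhibitor, had -0.52. MYC was not called (log2 fold change -0.05). The calls of EIF3K, EIF2B3, EIF3A, VIM and RPTOR were lost without any one of MPI MT 2, MPI MT 3, WT 1 or WT 2. Their limma adjusted p ran up to 0.134, for VIM. With the block the counts higher and lower became 43 and 2 for biogenesis factors, 13 and none for snoRNA hosts, 17 and 2 for initiation factors and 39 and 8 for mitochondrial ribosome genes. For RNA polymerase I genes they were 7 and 3, for the other TOP genes 3 and 3, and for the mTORC1 and MYC list 7 and 6. Without both libraries numbered 1, 48 biogenesis factors were higher and 2 lower, 13 snoRNA hosts were higher and none lower, and 46 mitochondrial ribosome genes were higher and 7 lower. The background of that fit was 28.3% higher and 27.1% lower. These lists were chosen with results of these data known, and no list was tested as a whole.

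**Figure D5:**
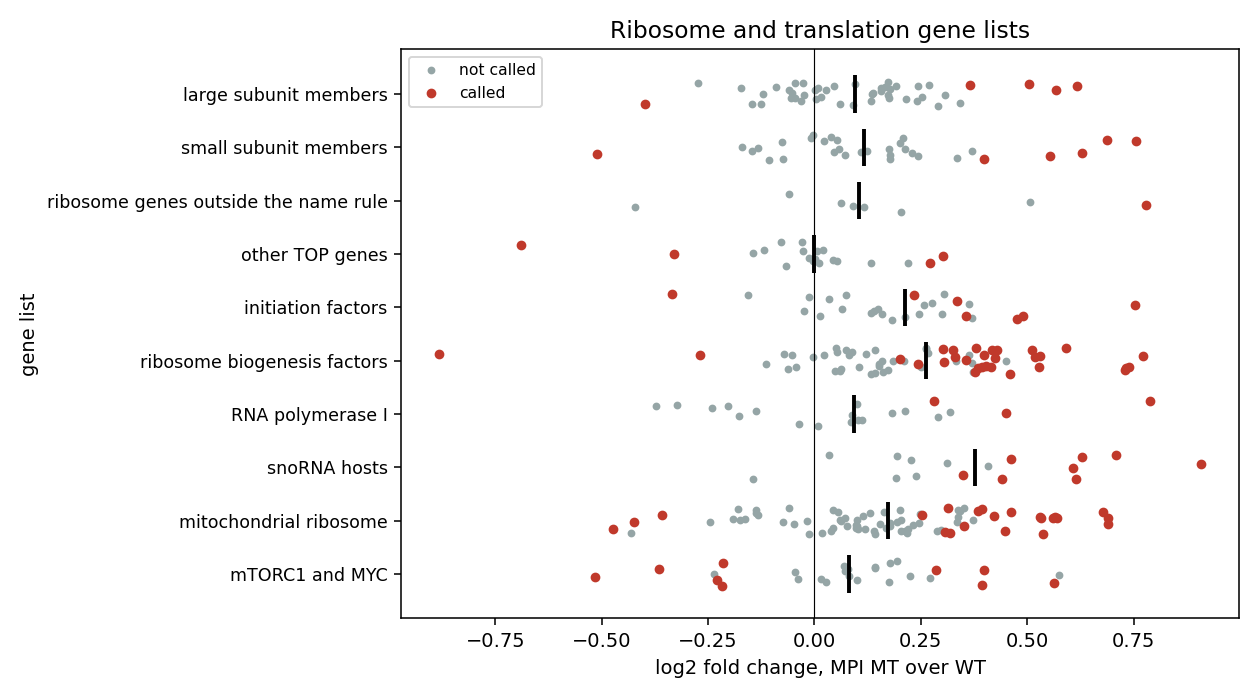
Log2 fold change (MPI MT over WT, x axis) of each gene in the ribosome and translation lists (y axis), with called genes in red, others in grey and black bars at the medians. The snoRNA hosts and ribosome biogenesis factors have medians of 0.38 and 0.26, and the other TOP genes have a median of -0.001.

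Rows for ribosomal protein pseudogenes, which are not members, included the largest changes of this family by name. Of 80 such rows 3 were called higher and 4 lower, with a median log2 fold change of -0.04, and with the block 8 were higher and 7 lower. These shares, 3.75% and 5.0%, were under the 16.0% and 16.6% of all genes tested. With the block they were 10.0% and 8.75%, against 25.1% and 24.6%. RPSAP52 had 235, 328 and 305 normalised reads in MPI MT libraries 1 to 3, against 40.8, 22.1 and 32.9 in WT, a change of 3.17 ± 0.24 in log2 (limma adjusted p = 4.4e-05). It lies at chr12:65758020-65826997 and overlaps HMGA2, an architectural chromatin protein gene, on the opposite strand. HMGA2 had 2627, 3228 and 3414 normalised reads in MPI MT, against 534, 496 and 527 in WT, a log2 fold change of 2.56. The gene spans overlap, but 0.0% of the RPSAP52 reference transcript lies over exons of other genes. The strand setting is not known, and the part of HMGA2 reads in the RPSAP52 count was not tested. RPLP0P2, at chr11:61615036-61639449, had 388, 499 and 527 normalised reads in MPI MT, against 75.3, 69.9 and 62.7 in WT, a change of 2.74 ± 0.15 in log2 (limma adjusted p = 1.1e-05). RPSAP52, RPLP0P2 and HMGA2 were named after their values were seen. The parent genes RPSA and RPLP0 had log2 fold changes of 0.18 and 0.34. The pseudogene rows with the most reads, RPS2P5, RPSAP47, RPL41P1, RPSAP58 and RPL32P3, were not called without the block, with log2 fold changes of 0.19, 0.10, -0.13, 0.09 and -0.36. Summed over all 80 rows, pseudogene values were 0.986% to 1.01% of the members' summed values in MPI MT and 0.954% to 0.970% in WT. GENCODE lists up to 91 pseudogene copies of a member, and no source used here says how reads that fit several copies were counted.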

How the data were processed

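RNA-seq values of 6 LX-2 libraries (3 MPI MT, 3 WT) came from 1 table. Per the labels' protocols, RNA was poly(A)-selected, randomly primed and sequenced as paired-end reads. Tools in the submitters' processing notes are STAR 2.5.2b, Trimmomatic 0.36, Subread 1.5.2 with featureCounts, and DESeq2, with the build GRCh38. No source used here gives the annotation release, the strand setting or the handling of multi-mapping reads. The authors deposited a signal per gene and library that equals whole reads (100% within 0.01) divided by a size factor, and their own log2 fold changes, p-values and adjusted p-values, used only as an alternative.

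The table's 17911 genes had a mean of at least 9.83. Genes with a mean of at least 10 (17893) were tested with limma 3.58.1 (trend, robust) in R 4.3.3 on log2(value + 1), with Benjamini-Hochberg adjustment over all of them. DESeq2 1.42.0 and edgeR 4.0.16 were run on the recovered reads as alternatives, and the calls they made are given in the closing section. Code was tested on simulated data. The chi-square per gene was 2.72 to 35.0 between MPI MT libraries and 3.50 to 16.8 between WT libraries, so none was merged. Deviations of same-numbered libraries from the genotype means correlated at 0.545, 0.189 and 0.276, all above the limit of 0.1. The number was therefore fitted as a block in an alternative fit, on this measure alone, since no label names a shared batch. Unlike-numbered libraries passed the limit too (MPI MT 2 with WT 3 at 0.299, MPI MT 3 with WT 2 at 0.168). Passing it thus does not single out numbers 2 and 3 as pairs, and the libraries numbered 1 stand apart.

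Members and lists were chosen with earlier results of these data known. Genes named are MPI, up to 12 called members per subunit and direction, the 5 with most reads per subunit, members with a paralog, up to 4 called genes per list or else the most abundant, and the 5 pseudogene rows with most reads. Coordinates, transcripts, overlaps and pseudogene copies are from GENCODE release 29 on GRCh38, a release chosen here. All value columns of the table were used. Some members and listed genes are not reported by name or drawn singly here, though counts and medians include them.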

Additional observations from a re-analysis of the deposited data

How the results depend on the processing

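The gene table is scaled between libraries, so total RNA per cell does not show, and each member had at least 449 normalised reads in every library. RPS28, RPS12, RPS21, RPS16, RPS3 and RPL17 kept direction and call under all 20 alternatives, and the changes in RPL36, RPL38, RPS27A and RPL7A calls came with the adjusted p limit of 0.01 or a library left out. The replicate block gave 4494 genes higher over all genes (edgeR with the block 4647), 20 large and 15 small subunit members higher (20 and 15), and 4 and 3 lower (3 and 1 with edgeR). It changed the calls of 31 members, all from not called to called. Without both libraries numbered 1 the counts were 4984 higher and 4758 lower over all genes, 26 and 18 members higher and 3 and 2 lower. With each library left out in turn, genes called higher ran from 1738 to 4389, large subunit members higher from 3 to 24 and lower from 0 to 1, and small subunit members higher from 4 to 17. At an adjusted p under 0.01, 1513 genes were higher and 1799 lower, with 2 large subunit members higher and 0 lower. Under upper-quartile scaling or scaling to the total, 2 large subunit members were lower. Under TMM, DESeq2, edgeR and the authors' deposited table, counts of members called stayed within 1.5 times of 4 and 1, and of 5 and 1. Uncalled values near 0 changed sign. Without both libraries numbered 1, RPL5 was 0.018 and RPL39L 0.011. With each library left out in turn, log2 fold changes ran from -0.035 to 0.17 for RPS18, -0.16 to 0.030 for RPS23, -0.016 to 0.17 for RPL36A, -0.089 to 0.017 for RPL39L, -0.21 to 0.011 for RPS4X, -0.090 to 0.079 for RPL5, -0.057 to 0.24 for RPSAP47, -0.28 to 0.12 for RPL41P1, -0.028 to 0.27 for RPSAP58 and -0.037 to 0.23 for FAU. The cause was not tested.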
